A study of Homo sapiens with 24 samples.

Results

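EOMES, PDCD1 and ULBP1 are 3 immune genes. After 4 h and 8 h they had lost nearly all of their reads in MOLT4 leukaemia cells exposed to the kinase degrader SK-3-91. They were taken by gene symbol from a table of 9822 genes, and each symbol matched 1 row. They were chosen by measured values, namely their low SK-3-91 over DMSO fold changes at 4 h and 8 h. Those values are therefore given as a description with no test, and only the 1 h libraries are tested. The choice was not made on 1 h values, but earlier results of these data were known when it was made. The 1 h tests are thus not wholly independent of it. Cells received SK-3-91, a degrader aimed at many kinases according to the study's title, or the solvent DMSO, for 1, 4 or 8 h, with 4 libraries in each of the 6 groups. All 24 libraries came from MOLT4, an established human line of T-cell acute lymphoblastic leukaemia, grown in RPMI1640 medium with serum. A degrader joins a ligand of its target protein to a ligand of a ubiquitin ligase. No source used here states the dose, and nothing says that the replicates were separate cultures. The p-values therefore measure only the spread between these libraries, which may be technical.

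EOMES encodes eomesodermin, a T-box transcription factor that, with its relative T-bet (gene TBX21), directs effector and memory programmes in CD8 T cells and natural killer (NK) cells. PDCD1 encodes PD-1, an inhibitory receptor that activated and exhausted T cells carry, whose cytoplasmic tail recruits the phosphatase SHP-2 (gene PTPN11) to dampen signalling from the T-cell receptor. ULBP1 encodes a surface protein related to MHC class I that is displayed on stressed, infected or transformed cells and is bound by NKG2D, an activating receptor of NK cells and T cells. EOMES is thus a nuclear regulator of the lymphocyte itself, PD-1 a receptor on it, and ULBP1 a ligand that marks a cell to other lymphocytes.

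The bases just upstream of the 3 genes are shown because the 3 transcripts fell together, so that a reader can see how alike the stretches are. Each stretch holds the 250 bases before the RefSeq transcription start (build GRCh38.p14), read 5′ to 3′ on the gene's own strand, with capitals on matches to the motifs named after them; where a motif's letters are on the other strand, the capitals show their complement in reverse. The EOMES stretch lies at chr3:27722324-27722573 on the minus strand, that of PDCD1 at chr2:241858895-241859144 on the minus strand, and that of ULBP1 at chr6:149963693-149963942 on the plus strand.
EOMES: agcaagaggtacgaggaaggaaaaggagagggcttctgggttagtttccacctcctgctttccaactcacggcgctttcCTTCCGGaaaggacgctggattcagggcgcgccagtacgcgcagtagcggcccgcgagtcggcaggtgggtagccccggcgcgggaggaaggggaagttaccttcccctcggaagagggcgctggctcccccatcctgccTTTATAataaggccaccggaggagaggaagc
PDCD1: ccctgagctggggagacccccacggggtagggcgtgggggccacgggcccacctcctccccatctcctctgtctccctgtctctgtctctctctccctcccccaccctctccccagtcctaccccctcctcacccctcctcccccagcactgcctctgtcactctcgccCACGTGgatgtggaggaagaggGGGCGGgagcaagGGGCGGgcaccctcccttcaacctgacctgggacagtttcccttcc
ULBP1: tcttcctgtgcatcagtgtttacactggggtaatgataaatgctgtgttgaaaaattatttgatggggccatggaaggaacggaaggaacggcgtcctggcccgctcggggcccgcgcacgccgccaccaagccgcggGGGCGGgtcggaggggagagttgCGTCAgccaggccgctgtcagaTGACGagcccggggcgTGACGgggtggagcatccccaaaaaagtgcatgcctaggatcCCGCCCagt

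Both strands were searched for the GC box, GGGCGG. A second motif was the short site of the cAMP response element, TGACG. Others were the E-box CACGTG and the CCAAT box. The TATA box was searched as TATAAA. The ETS core was searched as CCGGAAG. The short T-box site was searched as GGTGTGA. No match overlapped another. The EOMES stretch held 1 TATA box, with its first base at -31 from the start, and 1 ETS core at -171, both on the strand opposite to the gene. The PDCD1 stretch held an E-box at -81 and GC boxes at -59 and -46 on the gene's strand. The ULBP1 stretch held 3 short cAMP response element sites, at -89 on the opposite strand and at -67 and -51 on the gene's strand, and GC boxes at -112 on the gene's strand and at -9 on the opposite one. Of 35116 promoter stretches of this length, 42.6% held a GC box, 21.2% the short cAMP site, 10.7% the TATA box, 8.52% the ETS core and 6.34% the E-box. The CCAAT box and the short T-box site, held by 32% and 2.76%, were in none of the 3. No motif was thus in all 3 stretches. GC content was 62.0% for EOMES, 68.4% for PDCD1 and 61.6% for ULBP1, against a median of 58.0% over all promoter stretches. A match is a string of letters and not a measured binding site.

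Depth fell with treatment. Counted reads, in megareads, ranged per library between 13.57 and 13.65 with SK-3-91 and between 14.01 and 14.31 with DMSO at 1 h. At 4 h the ranges were 10.64 to 10.87 with SK-3-91 and 14.27 to 14.55 with DMSO, and at 8 h 6.862 to 8.963 with SK-3-91 and 13.57 to 14.63 with DMSO. Levels are CPM, counts relative to library size, scaled by TMM, a factor per library that keeps the bulk of genes level, so each value is relative to the other transcripts. In such bulk samples fewer cells that express a gene and less of its RNA per cell cannot be told apart. The label was checked against markers: 25 of 26 listed T-cell genes were measured. Of these 10 were called higher and 5 lower with SK-3-91 at 1 h, 9 and 14 at 4 h, and 5 and 18 at 8 h (2 and 22 without scaling factors). Of all 9822 genes, 24.9% were called higher and 29.4% lower at 1 h, 42.0% and 45.9% at 4 h, and 41.3% and 48.1% at 8 h. Among the T-cell genes called higher at 1 h were CD3E, with 1102 CPM under SK-3-91 and 944.9 CPM under DMSO, and TCF7, with 2407 and 2023 CPM. Among those called lower were GATA3, with 51.4 and 91.0 CPM, and CD28, with 36.4 and 43.6 CPM. At 8 h CD3E had 2470 and 1110 CPM in that order, and TCF7 1270 and 2750 CPM. None of 9 NK-cell markers was among the genes analysed. Of 8 B-cell, 8 myeloid and 11 erythroid, epithelial or stromal markers, only CD79A, CD68 and PECAM1 were. CD79A had 10.1 CPM under SK-3-91 and 8.01 CPM under DMSO at 1 h, and 26.6 and 8.2 CPM at 8 h. CD68 had 6.29 CPM under SK-3-91 and 2.03 CPM under DMSO at 8 h; 77.1% of its 32-base words also occur in other genes, so its counts are uncertain. PECAM1 had 17.9 and 43.3 CPM in that order at 8 h. The part of other cell types in the results was not tested.

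EOMES was low but measurable in solvent-treated cells and close to the limit of counting after 4 h of SK-3-91. At 1 h its counts were 63, 81, 94 and 91 in the SK-3-91 libraries, against 213, 223, 202 and 223 in the DMSO libraries. At 4 h they were 2, 6, 6 and 1 with SK-3-91, against 213, 175, 182 and 177 with DMSO. At 8 h they were 1, 2, 4 and 1 with SK-3-91, against 169, 167, 159 and 176 with DMSO. Every SK-3-91 library lay below every DMSO library at each time. The mean level was 5.64 ± 0.938 CPM with SK-3-91 and 14.0 ± 0.656 CPM with DMSO at 1 h (SD, n = 4). It was 0.39 ± 0.274 and 11.8 ± 1.06 CPM in the same order at 4 h. At 8 h it was 0.325 ± 0.282 CPM with SK-3-91 and 10.9 ± 0.342 CPM with DMSO. At 4 h and 8 h the SD of the treated libraries was thus nearly as large as their mean, as single reads decide these values.

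PDCD1 was the best expressed of the 3 and had the smallest decrease at 1 h. Its counts at 1 h were 223, 239, 260 and 214 with SK-3-91, against 347, 333, 360 and 366 with DMSO. At 4 h they were 16, 18, 11 and 13 with SK-3-91, against 451, 469, 493 and 559 with DMSO. At 8 h they were 10, 9, 4 and 3 with SK-3-91, against 397, 475, 399 and 480 with DMSO. The treated and solvent libraries did not overlap at any of the 3 times, but at 1 h the gap between the nearest of them was small beside the later ones. Mean levels were 16.0 ± 1.3 CPM with SK-3-91 and 22.8 ± 0.984 CPM with DMSO at 1 h (SD, n = 4). They were 1.5 ± 0.326 CPM with SK-3-91 and 31.1 ± 3.23 CPM with DMSO at 4 h. At 8 h they were 0.955 ± 0.448 and 28.4 ± 2.51 CPM in the same order.

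ULBP1 declined in steps. It had 116, 125, 147 and 116 counts with SK-3-91 at 1 h, against 259, 259, 260 and 269 with DMSO. At 4 h it had 7, 8, 11 and 7 counts with SK-3-91, against 166, 182, 153 and 160 with DMSO. At 8 h 2, 3, 2 and 3 counts were left with SK-3-91, against 210, 198, 210 and 186 with DMSO. Again no treated library reached a solvent library of its time. Mean levels were 8.63 ± 0.96 CPM with SK-3-91 and 17.0 ± 0.35 CPM with DMSO at 1 h (SD, n = 4). They were 0.856 ± 0.2 and 10.4 ± 0.788 CPM in that order at 4 h, and 0.375 ± 0.0682 and 13.0 ± 1.03 CPM at 8 h. ULBP1 shares 13.2% of its 32-base sequence words with other genes, mostly with RAET1K (12.1%) and ULBP3 (3.57%), which belong to the same family, so a small part of its reads could be ambiguous. The figure was 0.0467% for PDCD1 and 0.0% for EOMES, and none of the 3 has exon bases under exons of the opposite strand.

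**Figure D1:**
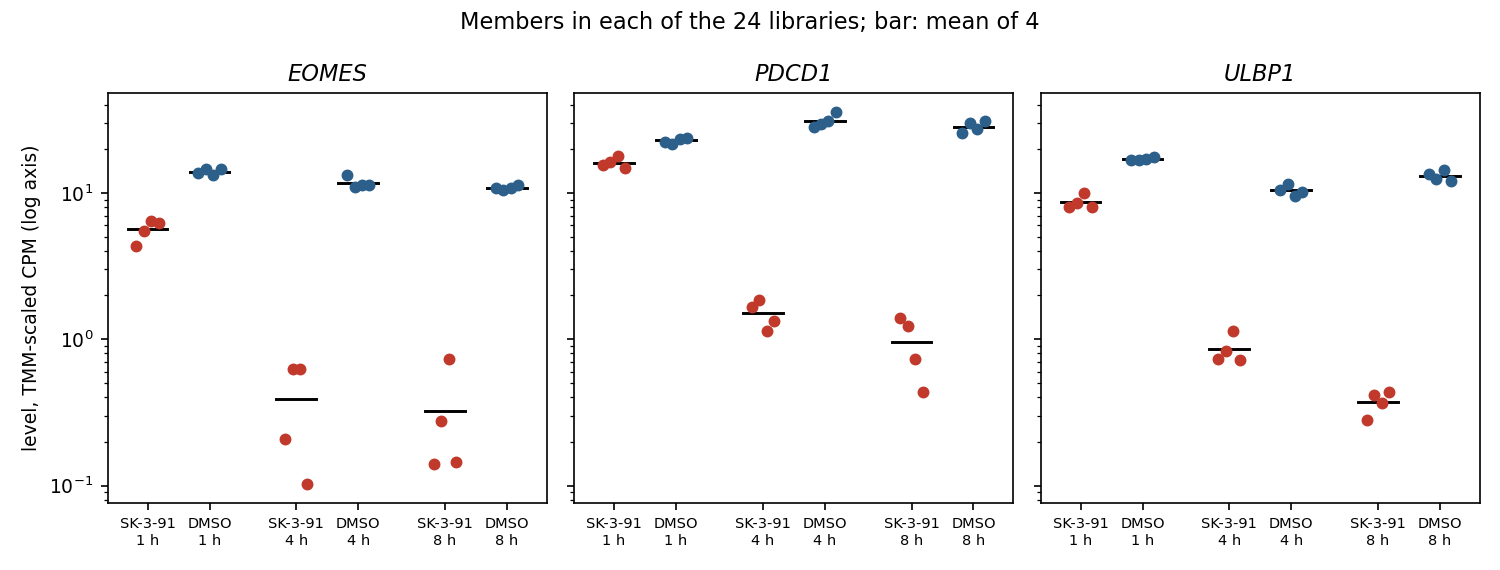
Level of each member in the 24 libraries, in TMM-scaled CPM on a log axis, with SK-3-91 in red, DMSO in blue and the mean of 4 libraries as a bar. All SK-3-91 libraries sit below the DMSO libraries of their time, by a short distance at 1 h (5.64 against 14.0 CPM for EOMES) and by a long one at 4 h (0.39 against 11.8 CPM).

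The 1 h comparison asked whether the 3 genes were already lower after the shortest exposure, and all 3 were. EOMES fell by 1.31 ± 0.11 on the log2 scale (SE, n = 4 per group; edgeR adjusted p = 1.8e-13). ULBP1 fell by 0.98 ± 0.08 (edgeR adjusted p = 4e-13). PDCD1 fell by 0.51 ± 0.08 (edgeR adjusted p = 2e-06). Each was lower in 4 of 4 SK-3-91 libraries. The background is wide: 54.3% of the 9822 genes were called in either direction at 1 h and 29.4% were called lower, and in 28.2% all 4 SK-3-91 libraries lay below all 4 DMSO libraries, so being lower sets the 3 little apart. The size was less common. A call with a decrease of at least 2-fold was made for 3.25% of genes, EOMES among them; ULBP1, at 1.97-fold lower by summed counts (95% counting interval 1.77 to 2.19), and PDCD1, at 1.42-fold (1.31 to 1.55), were not. By rank, 1.49% of genes fell further than EOMES, 3.5% further than ULBP1 and 11.4% further than PDCD1. The calls did not turn on the processing: over 17 alternatives the largest adjusted p was 7.1e-12 for EOMES, 6.1e-11 for ULBP1 and 3.6e-05 for PDCD1.

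How far the 3 differed from one another at 1 h was read from the ratio of 2 counts inside the same library, which no scaling factor can change. The log2 ratio of EOMES to PDCD1 was -1.52 ± 0.244 with SK-3-91 and -0.71 ± 0.104 with DMSO (SD, n = 4 each). It was lower in every treated library, by 0.81 on average (exact two-sided permutation p = 0.0286, adjusted p = 0.0429 over the 3 pairs). The log2 ratio of PDCD1 to ULBP1 was 0.90 ± 0.0556 with SK-3-91 and 0.42 ± 0.0457 with DMSO, a difference of 0.47 (exact permutation p = 0.0286, adjusted p = 0.0429). PDCD1 thus lost a smaller share of its reads at 1 h than either of the other two. EOMES to ULBP1 gave -0.63 ± 0.217 with SK-3-91 and -0.28 ± 0.0612 with DMSO, with overlapping libraries (exact permutation p = 0.0571, adjusted p = 0.0571), so these 2 were not told apart by this test. The smallest p that 4 against 4 libraries allow is 0.0286.

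**Figure D2:**
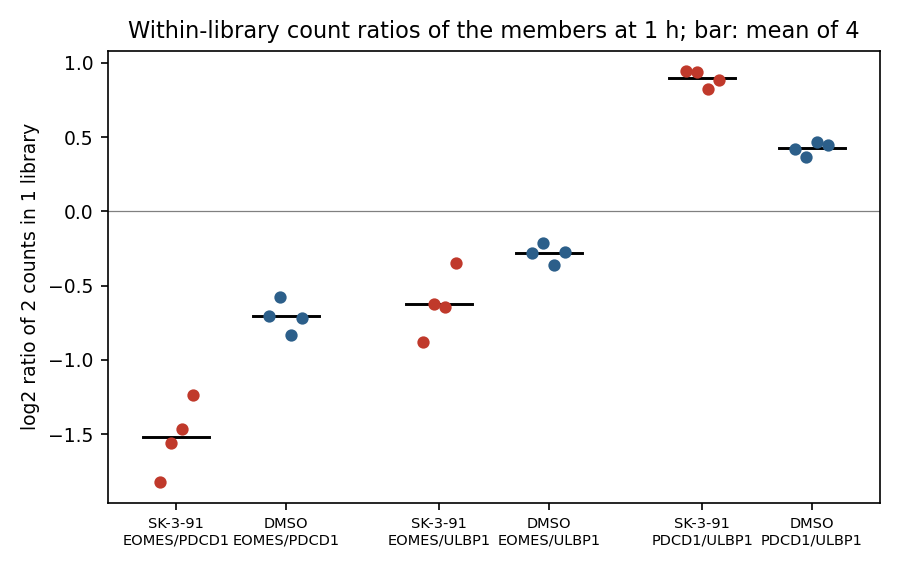
Log2 ratio of the counts of 2 members in each 1 h library, SK-3-91 in red, DMSO in blue, with the mean of 4 as a bar. The 2 treatments do not overlap for EOMES to PDCD1 (means -1.52 and -0.71) and PDCD1 to ULBP1 (0.90 and 0.42), and overlap for EOMES to ULBP1.

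At 4 h and 8 h, the contrasts that chose the members, what remained was a few percent. At 4 h the summed counts of EOMES were 15 with SK-3-91 and 747 with DMSO, which at equal depth is 3.31% of the DMSO level (95% counting interval 1.84 to 5.49%). For PDCD1 they were 58 and 1972, or 4.84% (3.66 to 6.29%), and for ULBP1 33 and 661, or 8.22% (5.61 to 11.7%). At 8 h the remainder was 2.76% for EOMES (1.19 to 5.46%), 3.43% for PDCD1 (2.24 to 5.05%) and 2.88% for ULBP1 (1.37 to 5.32%). Without SK-3-91 replicate 3 the EOMES value at 8 h was 1.73%. At 1 h the levels had been 40.4% of DMSO for EOMES (35.4 to 45.9%), 50.8% for ULBP1 (45.6 to 56.6%) and 70.3% for PDCD1 (64.7 to 76.4%). At 8 h the 3 intervals overlap widely. These intervals hold counting error only, and no order of the members is read from them. Lower values were common at these times. At 4 h 87.9% of genes were called, 45.9% lower and 42.0% higher, and at 8 h 89.4% were, 48.1% lower and 41.3% higher. All 4 SK-3-91 libraries lay below all 4 DMSO libraries in 43.7% of genes at 4 h and 45.1% at 8 h. A fitted decrease of 8-fold or more was found in 0.967% of genes at 4 h and 1.92% at 8 h, and all 3 members were among them both times.

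Fitted log2 fold changes at 4 h were -4.88 ± 0.22 for EOMES, -4.36 ± 0.14 for PDCD1 and -3.59 ± 0.17 for ULBP1 (SE, n = 4 per group). EOMES held rank 1 of 9822 from the lowest value, PDCD1 rank 5 and ULBP1 rank 33. At 8 h the values were -5.14 ± 0.28, -4.85 ± 0.18 and -5.08 ± 0.22 in the same order of genes, with ranks 3, 7 and 4. Of the 8 EOMES reads with SK-3-91 at 8 h, 4 came from replicate 3, and without that library the fitted value was -5.78. Fitted values of genes with so few reads depend on the prior count, so the percentages from summed counts are the firmer measure.

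**Figure D3:**
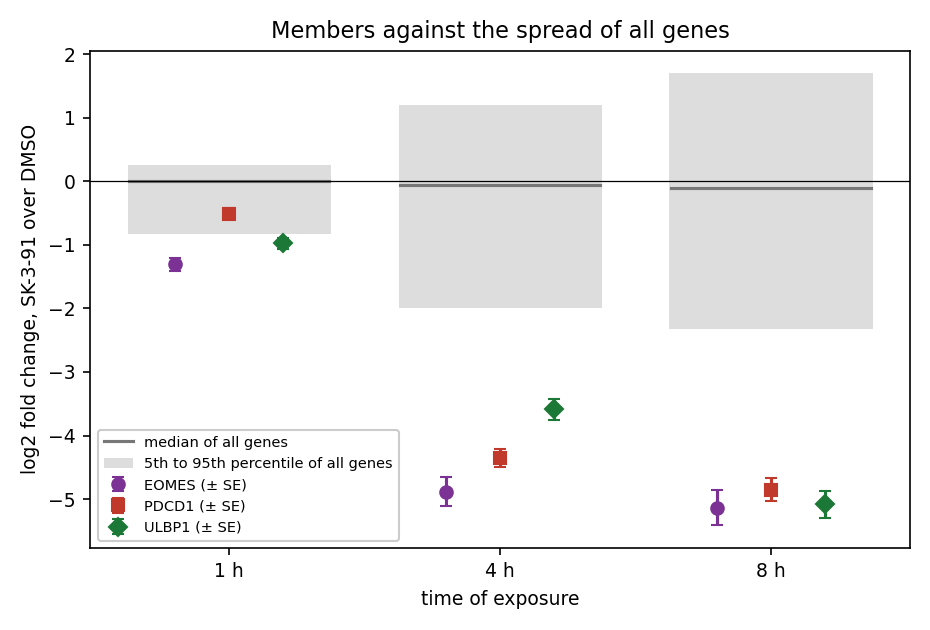
Log2 fold change of the 3 members, SK-3-91 over DMSO, at 1, 4 and 8 h with SE bars, over a grey band from the 5th to the 95th percentile of all genes and a line at their median. At 1 h PDCD1 (-0.51) lies inside the band, and at 4 h and 8 h all 3 lie below its lower edge (-2.0 and -2.33).

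In fold terms, the step among SK-3-91 libraries was larger between 1 h and 4 h than between 4 h and 8 h. The 4 h level was 6.9% of the 1 h level for EOMES (95% counting interval 3.82 to 11.5%), 9.37% for PDCD1 (7.06 to 12.2%) and 9.9% for ULBP1 (6.74 to 14.1%). The 8 h level was 43.8% of the 4 h level for ULBP1 (19.3 to 91.0%), with all 8 h libraries below all 4 h libraries. For PDCD1 it was 64.8% (39.2 to 105.0%) and for EOMES 77.1% (28.3 to 194.0%), with overlapping libraries. The EOMES value was 48.4% without 8 h SK-3-91 replicate 3, which held 4 of its 8 reads. A further decrease of these 2 after 4 h was not detectable at this depth.

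The solvent-treated cells did not stand still either, and the 3 genes took different courses in them. PDCD1 was higher later: its DMSO level at 4 h was 136.0% of that at 1 h (127.0 to 146.0%) and at 8 h 124.0% (116.0 to 134.0%), with all later libraries above all 1 h libraries. EOMES drifted down, to 84.2% at 4 h (76.2 to 92.9%) and 77.8% at 8 h (70.3 to 86.2%), and its 8 h libraries all lay below its 1 h libraries while the 4 h libraries overlapped them. ULBP1 dipped, to 61.2% at 4 h (55.5 to 67.6%), and its 8 h level was 125.0% of its 4 h level (113.0 to 139.0%), with no overlap in either step. Because the DMSO baselines moved, the treated levels were also set against DMSO of the same time throughout. These solvent values share libraries with the contrasts that chose the genes and are given without a test.

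Per kilobase of the deposited gene width, which allows levels of different genes to be set side by side, PDCD1 led in every group. With SK-3-91 at 1 h it had 7.25 ± 0.588 CPM per kilobase, ULBP1 2.66 ± 0.296 and EOMES 1.47 ± 0.244 (SD, n = 4), with no overlap between libraries of neighbouring genes. With DMSO at 1 h the levels were 10.3 ± 0.445, 5.24 ± 0.108 and 3.63 ± 0.171 CPM per kilobase in the same order. At 4 h they were 0.68 ± 0.147, 0.264 ± 0.0618 and 0.101 ± 0.0712 with SK-3-91, and 14.0 ± 1.46, 3.21 ± 0.243 and 3.06 ± 0.276 with DMSO. ULBP1 and EOMES overlapped in the 4 h DMSO libraries and in the 8 h SK-3-91 libraries. PDCD1 was a middling gene in solvent-treated cells: 54.7% of genes had a lower level per kilobase at 4 h in DMSO, against 17.8% for ULBP1 and 17.0% for EOMES. With SK-3-91 at 4 h those shares were 4.25% for PDCD1, 0.662% for ULBP1 and 0.0204% for EOMES.

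Genes with the most similar course were found by the root mean square (RMS) difference of log2 CPM over the 6 group means, each gene set to 0 at DMSO 1 h. For EOMES the 5 nearest were the zinc-finger genes ZNF200 (0.36) and ZNF583 (0.375), ULBP1 (0.383), TEX19 (0.525) and TFAP2C, an AP-2 transcription factor gene (0.644). ULBP1 had the same neighbours: ZNF583 (0.354), EOMES (0.383), TFAP2C (0.384), ZNF200 (0.482) and TEX19 (0.485). TEX19 has 43.8% of its exon bases under exons of the opposite strand and is uncertain, as the strand setting is not given. Other genes were nearest to PDCD1: C17orf97 (0.244), SLA, the gene of the Src-like adaptor of lymphocytes (0.305), and LOC100506688 (0.373). LOC257396 (0.373) and SELPLG, the gene of the selectin ligand PSGL-1 (0.38), came next. EOMES was rank 53 and ULBP1 rank 38 in likeness to PDCD1. Pearson's r over the 24 libraries was between 0.946 and 0.993 for all of these genes, a description only, since the libraries fall into 6 groups and 48.1% of all genes were called lower at 8 h.

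SLA and SELPLG, both expressed well above the members, took a course near that of PDCD1 but not the same. Their log2 fold changes at 1 h were -0.97 and -0.18, against -0.51 for PDCD1. SLA averaged 39.7 CPM with SK-3-91 and 77.8 CPM with DMSO at 1 h, and 5.13 and 88.8 CPM at 4 h. SELPLG averaged 84.6 CPM with SK-3-91 and 95.7 CPM with DMSO at 1 h, and 8.06 and 99.7 CPM at 4 h. Their log2 fold changes at 8 h were -4.28 and -3.90, against -4.85 for PDCD1.

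Other genes of the 3 pathways were counted on fixed lists without the members. Only genes among the 9822 enter, so many well-known partners are not analysed here: 10 of 26 checkpoint receptors and ligands were measured, 1 of 16 other T-box genes and 0 of 7 other NKG2D ligands. Over all genes 2448 were called higher and 2889 lower at 1 h, 4121 and 4511 at 4 h, and 4060 and 4723 at 8 h. Without scaling factors the later splits were 2871 and 5752, and 2778 and 6145, where the all-gene median lies 0.30 lower at 4 h and 0.43 lower at 8 h than with TMM. MGA, the T-box gene measured beside EOMES, encodes a repressor that pairs with MAX. It fell by 0.34 ± 0.05 at 1 h, by 1.16 ± 0.05 at 4 h and by 1.00 ± 0.06 at 8 h on the log2 scale (edgeR adjusted p = 1.7e-07, 7.5e-23 and 6.8e-20).

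Among checkpoint genes 3 were higher and 2 lower at 1 h, and 3 were higher and 6 lower at both 4 h and 8 h (medians 0.03, -0.45 and -0.26, against 0.01, -0.05 and -0.11 over all genes). With RLE factors 3 and 1 were called at 1 h (1 lower with DESeq2 too), and without scaling factors 0 and 9 at 8 h, so the increases late in the course depend on the scaling. VSIR, the gene of the inhibitory receptor VISTA, changed by -3.32 at 8 h, CD244, the gene of the receptor 2B4, by -2.50, and LAIR1, a collagen receptor gene, by -2.40 (edgeR adjusted p = 5e-29, 3.2e-10 and 9.4e-30). Among 5 costimulatory genes 3, 4 and 2 were lower and 0, 0 and 1 higher at 1, 4 and 8 h (4 lower at 8 h without scaling factors). CD2, an adhesion receptor gene, changed by -3.77 at 8 h, while ICOS changed by -0.68 at 1 h and by 1.44 at 8 h. All of these had an edgeR adjusted p under 0.05. No gene of these lists fell as far as the 3 members at 8 h. The members were chosen for that decrease, so this follows largely from the choice.

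The machinery through which PD-1 acts was mixed. Of 23 measured genes of T-cell receptor and PD-1 signalling, 9 were higher and 5 lower at 1 h, 8 and 11 at 4 h, and 10 and 13 at 8 h (7 and 6, 6 and 16, and 5 and 16 without scaling factors). PTPN11, the gene of SHP-2, changed by 0.33 at 8 h, and PTPN6, the gene of the related phosphatase SHP-1, by -3.01. FBXO38, whose product is a ubiquitin ligase subunit that acts on PD-1, changed by -2.05 at 4 h and -1.97 at 8 h. CSK, the gene of the kinase that holds LCK inactive, changed by -2.09 at 8 h, and CD247, the zeta chain gene of the receptor, by -1.92. All of these 8 h values and that of FBXO38 at 4 h passed in edgeR. Without scaling factors the all-gene median at 8 h lies 0.43 lower, which is more than the PTPN11 increase. The direction of PTPN11 may thus depend on the scaling.

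Of 14 measured factors known to act on PDCD1, 1 was higher and 7 lower at 1 h, and 5 higher and 9 lower at 4 h and at 8 h (1 and 10 at 4 h without scaling factors). The 7 lower at 1 h were 4 with DESeq2 and 5 with RLE factors. The median at 8 h was -0.65. NFATC1 and NFATC2, genes of calcium-dependent factors that bind the PDCD1 promoter, were not alike at 1 h: NFATC1 had -0.08, which did not pass (edgeR adjusted p = 0.19), and NFATC2 -0.17 (0.012). At 8 h they changed by -1.89 and -1.63. BHLHE40 changed by -1.31 at 1 h and -2.88 at 8 h, and NR4A1 by -1.90 at 4 h. TOX, which drives exhaustion programmes, changed by -0.11 at 1 h and by 0.79 at 8 h. Of 12 factors linked to EOMES, 3 were higher and 5 lower at 1 h, 5 and 7 at 4 h (3 and 8 without scaling factors), and 4 and 6 at 8 h. ID3, an inhibitor of helix-loop-helix factors, changed by -2.75 at 1 h, RUNX3 by -0.69 and TCF7 by 0.25, each past the threshold in edgeR. TCF7 then turned, with -0.45 at 4 h and -1.11 at 8 h, which also passed. In the cytotoxic programme, 5 of 23 genes were measured. CCR7 and TNFSF10, the gene of the death ligand TRAIL, were lower at all 3 times (-2.60 and -2.71 at 8 h), and CTSW (1.96) and SRGN (1.24) were higher at 8 h; counts at 8 h were 3 higher and 2 lower, or 2 and 3 without scaling factors.

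On the side of ULBP1, 11 of 21 genes of NK-cell recognition were measured. At 1 h 3 were higher and 1 lower (4 and 0 with RLE factors, and 0 lower with DESeq2), and at 4 h and 8 h 3 were higher and 6 lower. CD58, the gene of the ligand of CD2, changed by 0.40 at 1 h and by -3.18 at 8 h. B2M, the light chain gene of MHC class I, changed by 1.62 at 8 h, and ADAM10, a sheddase gene, by -1.34. Of 17 measured regulators linked to ULBP1, 6 were higher and 7 lower at 1 h, 8 and 6 at 4 h, and 7 and 10 at 8 h (6 and 10 at 4 h and 4 and 11 at 8 h without scaling factors). XBP1 changed by -3.52 at 8 h, SP1 by -1.58 at 4 h and SP3 by 1.90 at 8 h. Of 15 target genes of the stress factor ATF4, 1 was higher and 7 lower at 1 h, 5 and 9 at 4 h, and 6 and 9 at 8 h (4 and 11 without scaling factors). STC2 changed by -4.61 at 8 h, and SLC7A11, the cystine transporter gene, by -1.18 at 1 h and 0.87 at 8 h. All values in these sentences passed in edgeR at 0.05.

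**Figure D4:**
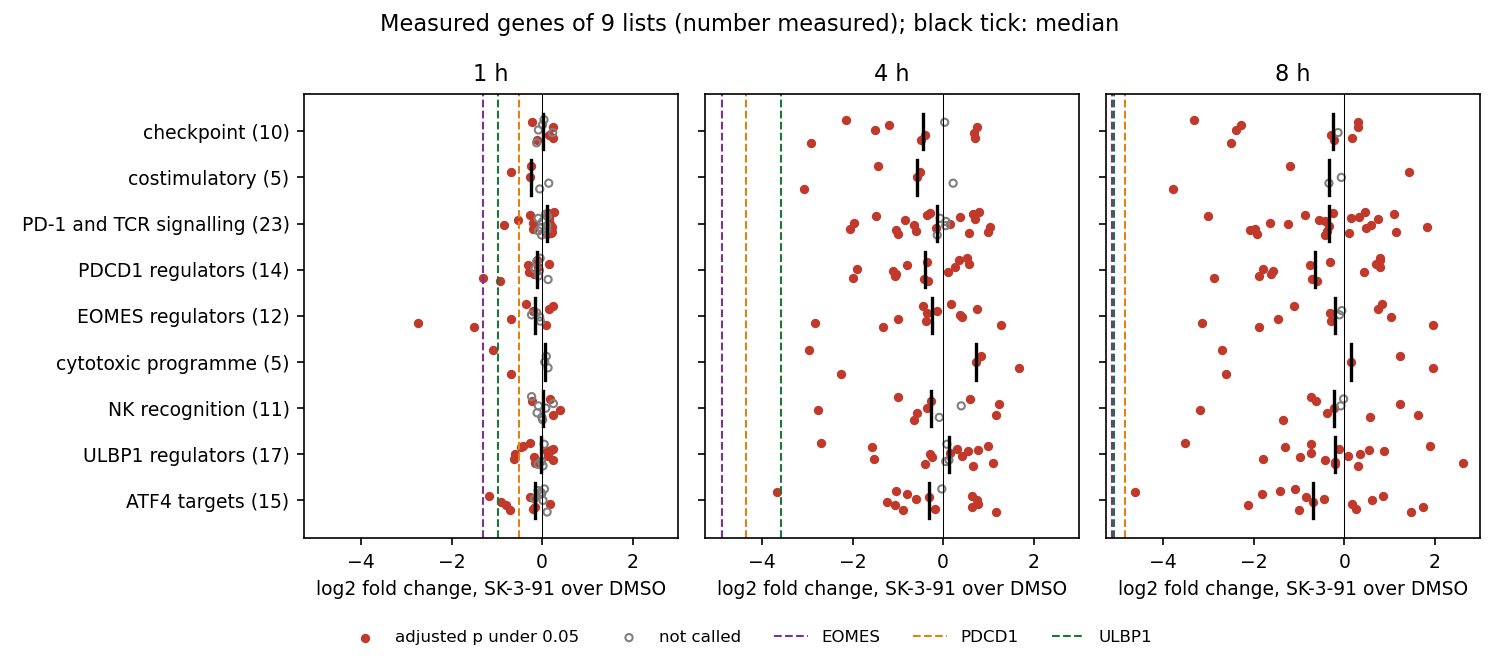
Log2 fold changes, SK-3-91 over DMSO, of the measured genes of 9 lists at 1, 4 and 8 h, filled where the edgeR adjusted p is under 0.05, with a black tick at each list's median and dashed lines at the 3 members. At 8 h the members (-4.85 to -5.14) lie left of every list gene, of which the ATF4 target STC2 (-4.61) comes nearest. The members were chosen for low values at 4 h and 8 h, so their place there follows largely from the choice.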

How the data were processed

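RNA of MOLT4 cells was read on a BGISEQ-500 instrument, 50 bases from one end of each fragment, per the labels' protocols. The authors' deposited count table holds whole-number read counts per Entrez gene, not normalized, for 9822 genes, with a gene width in bases. The submitters' processing notes name edgeR and genome build hg19; no source used here gives the aligner, counter, annotation or strand setting. A second deposited table, named for RPKM, holds log2 values, since 2 to the power of each is a straight line in the library's count (largest relative gap 3.9e-07%) whatever the width; the fits planned for linear RPKM were therefore not run.

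The fit used edgeR 4.0.16 (R 4.3.3) on 6 group means over 24 libraries, with TMM factors and filterByExpr, which kept all 9822 genes. Quasi-likelihood tests were adjusted by Benjamini-Hochberg over all genes, with a threshold of 0.05, and a standard error is the fold change divided by the root of F. Percentages of a level come from summed counts with TMM-scaled library sizes and 95% exact (Clopper-Pearson) counting intervals, which cover counting error only. Log2 CPM used a prior count of 2. Within-library ratios were tested with exact permutation tests. Replicates differed by more than counting noise (chi-square per degree of freedom 1.633 to 7.822), and each was counted as 1 sample. That spread does not show whether they were separate cultures. Shared 32-base words and opposite-strand exons come from GENCODE release 29, and promoters from RefSeq, GRCh38.p14.

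Members and lists were chosen with earlier results of these data known. From each of 16 lists, the named genes are up to 4 called genes with the largest change at 8 h and up to 2 at 1 h and at 4 h, at 2 CPM or more in the higher group; all T-box and NKG2D ligand genes measured; and the 5 genes nearest in course to each member. PTPN11, TOX and TCF7 and the marker CD3E were added after their values were seen, and some genes that the rule names are not reported here. Alternatives were RLE, upper-quartile or no scaling factors, no filter or 5 CPM in 4 libraries, DESeq2 1.42.0, limma-trend (limma 3.58.1) on the deposited log2 values, a replicate block, only the 8 libraries of a time, and each replicate left out.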

Additional observations from a re-analysis of the deposited data

Results flagged for a closer look

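EOMES in the 4 h DMSO libraries had 1 library apart from the other 3. Replicate 1 had 13.3 CPM, and the others between 11.0 and 11.4 CPM, a gap of 0.844 of the group's range. Without that library the log2 fold change of EOMES at 4 h was -4.82, against -4.88 with it. Chance gives such a gap in about 1 in 20 groups. The search covered each of the 3 members and the library totals in each of the 6 groups, so 1 such gap is not unusual.

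Several genes named by the rule above lay apart from DMSO in all 4 SK-3-91 libraries at 2 times, but in opposite directions. Only genes named by that rule were searched. Other list genes, TCF7 and TOX among them, had such courses too. The difference between times was not tested. Of the genes searched, SP3, ICOS, SLC7A11 and EIF2AK3 were below DMSO at 1 h and above it at 8 h. Their log2 fold change at 8 h minus that at 1 h was 2.31 for SP3, 2.12 for ICOS, 2.05 for SLC7A11 and 0.93 for EIF2AK3. Without scaling factors EIF2AK3 had -0.090 at 8 h, so its increase there depends on the scaling. Above DMSO at 1 h and below it at 4 h and 8 h were CD58, CSK, CD247 and CD5, for which the same difference was -3.58 for CD58, -2.19 for CSK, -2.03 for CD247 and -1.98 for CD5. At 1 h CSK and CD5 had not passed in edgeR (adjusted p = 0.06 and 0.07). EOMES, PDCD1 and ULBP1 themselves were below DMSO at all 3 times.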

How the results depend on the processing

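All 3 members kept their direction in all 17 alternatives at each time, and at 1 h the call. With limma-trend on the deposited log2 values the log2 fold changes were -1.06 for EOMES, -1.86 for PDCD1 and -0.92 for ULBP1 at 4 h, and -0.97, -1.79 and -1.11 at 8 h. Those values carry an added constant worth 79.3 to 159 counts per library, which shrinks the change of genes with few reads. Without scaling factors PDCD1 had -4.66 and ULBP1 -3.89 at 4 h, and ULBP1 -5.51 at 8 h. Leaving out 1 replicate gave -1.38 to -1.20 for EOMES, -0.56 to -0.47 for PDCD1 and -1.06 to -0.94 for ULBP1 at 1 h. At 4 h the ranges were -5.20 to -4.57, -4.48 to -4.25 and -3.76 to -3.51, and at 8 h -5.78 to -4.89, -5.10 to -4.60 and -5.17 to -4.96. In the 1 h ratio of EOMES to ULBP1, dropping SK-3-91 replicate 4, an alternative added after the data were seen, gave -0.43 (exact permutation p = 0.0286). The fits planned for linear RPKM were not run, as no table holds it. No pairing by replicate number was seen: 0 of 12 same-numbered pairs had deviations correlated over 0.1 (-0.12 to 0.02). Low correlations cannot show that there was none. With the replicate block EOMES at 8 h was -5.14. Among the other genes that the rule named, CD96 at 8 h turned to -0.26 without scaling factors and -0.25 with limma-trend. LGALS9 turned to -0.13 and -0.11, and EIF2AK3 to -0.090 and -0.062. PTPN11, TOX, TCF7 and CD3E were not checked in this way. List counts moved by over 1.5 times in 42 cases and did not in 1590. At 4 h and 8 h depth limits the members: 1 read was worth a large part of a treated library's value.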
